A study of Homo sapiens with 6 samples.

Results

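Solute carriers of the plasma membrane and lysosome move sugars, lactate and amino acids between the cell and its surroundings. Sugar carriers of the SLC2 family let glucose flow down its gradient, monocarboxylate carriers of the SLC16 family pass lactate with a proton, and amino acid carriers of several families work as uniporters, sodium symporters or obligate exchangers. Many tumour cells, melanoma cells among them, take up much glucose and glutamine and release lactate. The genes described here are those of the SLC1, SLC2, SLC3, SLC5, SLC6, SLC7, SLC16, SLC36, SLC38 and SLC43 families, chosen by name from the table of genes. Names with a suffix, which mark copies on alternate scaffolds, and antisense names were left out. The rule found 63 carriers among 20851 listed genes. By cargo they comprise 10 sugar and inositol carriers, 8 lactate carriers and close SLC16 relatives, 36 amino acid carriers and 9 carriers of other cargo.

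RNA was sequenced from A375, a human melanoma cell line that carries an activating BRAF mutation. Each library comes from 1 of 2 sublines made with lentiviral CRISPR/Cas9, grown in RPMI-1640 with serum. A375RIPK4.KO cells (clone #1, 3 libraries) received an sgRNA against RIPK4, and A375neg cells (3 libraries) received a nontargeting sgRNA. The titles of the A375neg libraries hold GFP and those of A375RIPK4.KO do not. Since A375RIPK4.KO is 1 clone, what RIPK4 loss and what the choice of clone contribute cannot be told apart. The same holds for whatever the GFP label marks.

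Libraries held 21882863 to 26694140 counts in genes, and a gene at 0 in a library could be present at up to 3 counts, 0.112 to 0.137 CPM, which covers counting error only. RIPK4 had 319, 368 and 404 raw counts in A375neg and 42, 51 and 61 in A375RIPK4.KO (log2 fold change −2.69, standard error 0.17, edgeR adjusted p = 1.01e-05). SOX10, a transcription factor of the melanocyte lineage, had 8844 to 10056 raw counts in A375neg and 7448 to 7858 in A375RIPK4.KO, while the melanosome gene PMEL had 3 to 22 over all libraries. Of 10 melanocytic and melanoma genes looked up, 6 had a row and 4 had none. The summed normalized counts of the 6 were 9502 to 10266 in A375neg and 8177 to 8593 in A375RIPK4.KO. Of these genes, S100B and S100A1 were called as lower, with log2 fold changes of −0.89 and −0.86, and kept the call in 2 and 0 of 6 fits with 1 library left out. MITF had −0.44 (edgeR adjusted p = 0.0449), under the fold limit. For markers of other cell types, the summed normalized counts were 38.7 to 49.3 in A375neg and 0 to 17.5 in A375RIPK4.KO for 3 leukocyte genes, 31.99 to 36.02 and 6.08 to 12.02 for 3 endothelial genes, 1755 to 1845 and 1308 to 1623 for 3 keratinocyte genes, and 121 to 150.0 and 102 to 137 for 4 fibroblast genes. The leukocyte gene PTPRC had at most 3 raw counts in any library. Called as lower among these markers were KRT14 (log2 fold change −1.75, edgeR adjusted p = 3.46e-05), PECAM1 (−2.12, 0.00556) and LYZ (−2.62, 0.0382). KRT14 and PECAM1 kept the call in 6 of 6 fits with 1 library left out, and LYZ in 2. PECAM1 and LYZ had at most 24 and 38 raw counts. The keratinocyte gene KRT10, with more counts than KRT14, had a log2 fold change of −0.01. A375RIPK4.KO replicate 2 had lower counts for longer genes, with a slope of −0.0467 log2 CPM per doubling of exon length against −0.00257 to 0.0159 in the other libraries. The part of these markers in the results was not tested.

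Normalized counts are raw counts scaled by edgeR's TMM method to the mean library size. A carrier is called where it differs by 1.5-fold or more at an adjusted p under 0.05. The p comes from the quasi-likelihood test of edgeR and is adjusted by Benjamini and Hochberg's method for the 14443 genes that were tested. Log2 fold changes are A375RIPK4.KO over A375neg, so a negative value is a lower level in A375RIPK4.KO. The filter on low counts kept 42 of the 63 carriers. The 21 others had at most 18 raw counts in any library and were not tested. They include the kidney glucose carrier SLC5A2, the glutamate carrier SLC1A2, the lactate carriers SLC16A8 and SLC5A12, and the light chains SLC7A7, SLC7A8 and SLC7A9.

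Of the 42 carriers tested, 2 rose and 9 fell in A375RIPK4.KO. Over all genes tested, 9.04% were called, 4.39% as higher and 4.65% as lower. The called carriers made up 26.2% of those tested. A further 7 carriers had an adjusted p under 0.05 with less than 1.5-fold change, and without the fold limit 16.6% of all genes passed. The median log2 fold change of the 42 was −0.05, beside −0.005 for all genes tested. The groups differed by cargo in the direction of their called members, as the plot of fold changes by cargo shows. Every called sugar carrier and every called member of the lactate group was lower, whereas 1 of 3 called amino acid carriers and 1 of 2 called carriers of other cargo were higher. The cargo groups split the SLC16 family, which as a whole had 9 genes tested, 1 called as higher and 4 as lower. The difference between the cargo groups was not tested.

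**Figure D1:**
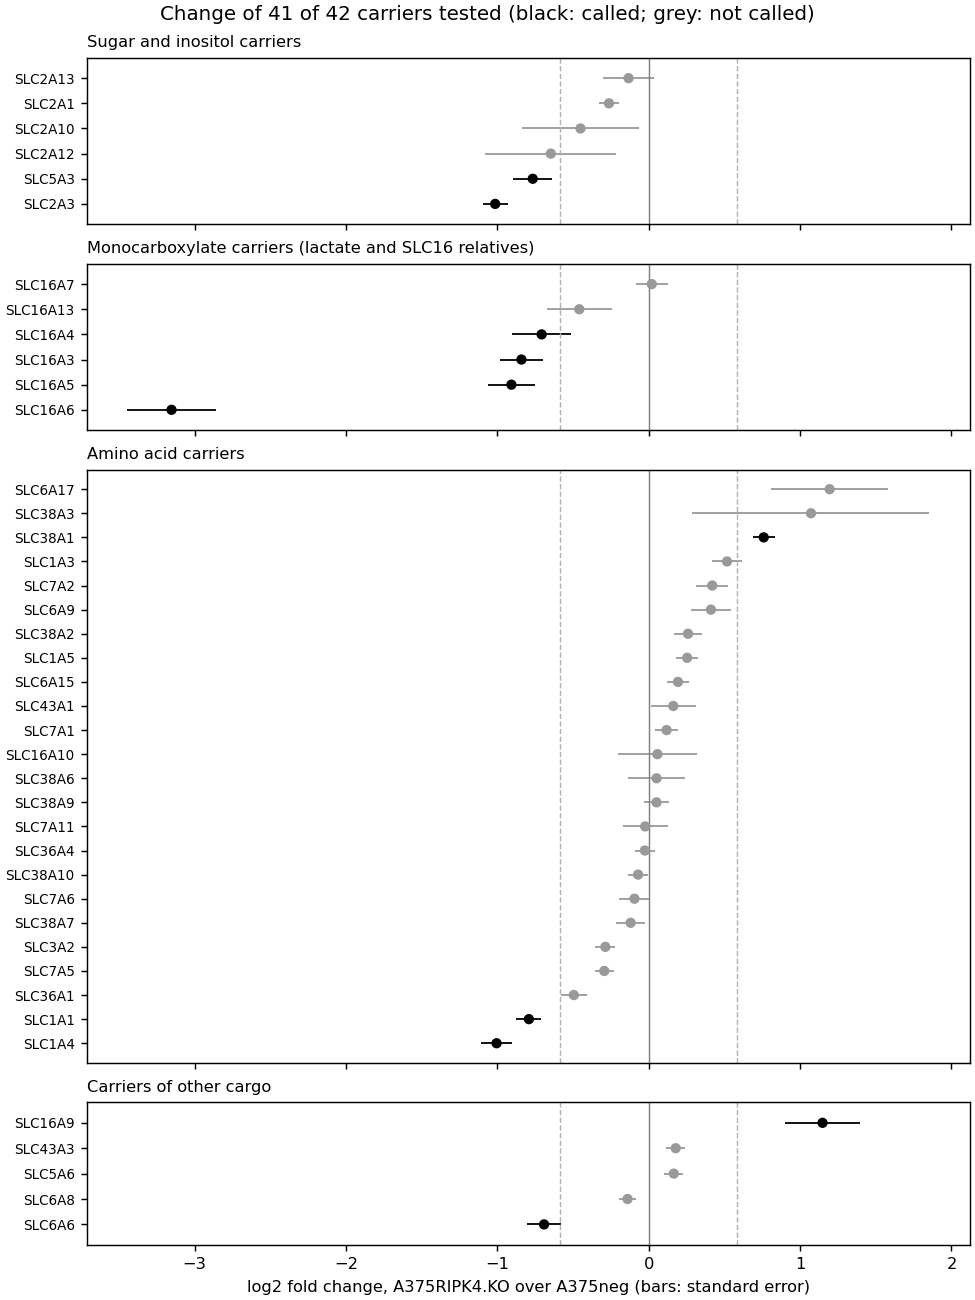
Log2 fold change of 41 of the 42 carriers tested, A375RIPK4.KO over A375neg (x axis), with genes in rows grouped by cargo. Points are edgeR estimates from 3 libraries per group, bars are standard errors, dashed lines mark 1.5-fold, black points are called and grey points are not. SLC16A6 lies far to the left at −3.15, all 6 sugar and inositol carriers lie left of 0, and the amino acid carriers lie on both sides.

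Per kilobase of exon, the most abundant was SLC7A5, with a mean of 9566 normalized counts per kilobase in A375neg and 7806 in A375RIPK4.KO. It was followed by the glutamine carrier SLC1A5 (3483 and 4153 per kilobase), the glucose carrier SLC2A1 (2531 and 2109.7), the heavy chain SLC3A2 (2312 and 1896), the purine base carrier SLC43A3 (1642 and 1858) and SLC38A2 (1384 and 1657). The called carriers were all less abundant than these, between 5.48 per kilobase in A375neg for SLC16A9 and 394 for SLC38A1. Together the 63 carriers took 0.538% to 0.550% of all counts in A375neg and 0.491% to 0.525% in A375RIPK4.KO, and SLC7A5 alone made up 33.6% to 34.4% and 28.6% to 30.4% of the carrier counts.

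**Figure D2:**
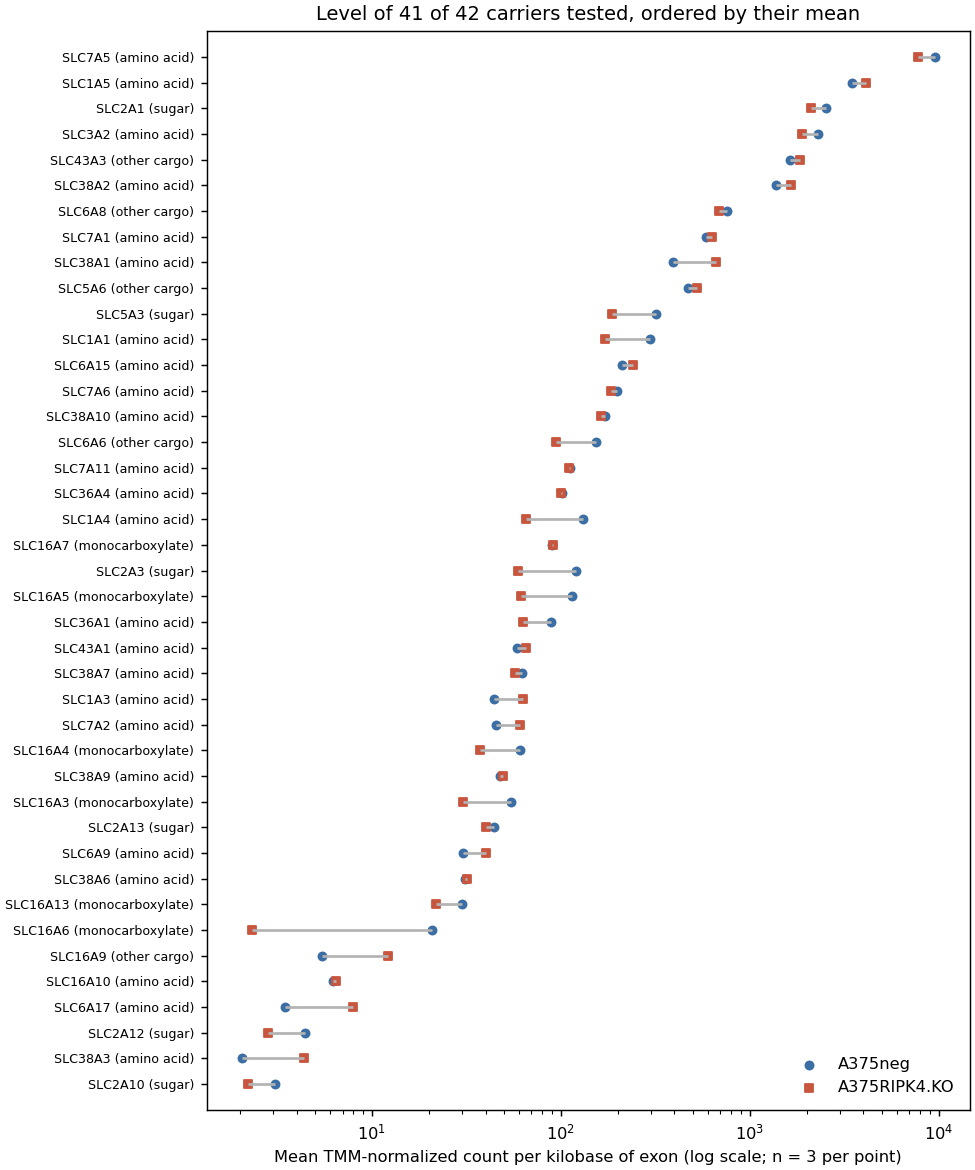
Mean TMM-normalized count per kilobase of exon (x axis, log scale) of 41 of the 42 carriers tested, in A375neg (blue circles) and A375RIPK4.KO (red squares), each point the mean of 3 libraries, with genes ordered by their mean over both groups. SLC7A5 stands at the top at 9566 and 7806, and SLC16A6 shows the widest gap among the called carriers, from 20.9 to 2.32.

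Sugar carriers fell or did not pass the test. Called as lower were SLC2A3 and SLC5A3, 2 of the 6 tested, or 33.3% beside 9.04% of all genes called. The median log2 fold change of the 6 was −0.55. That median lies between SLC2A12 (−0.65) and SLC2A10 (−0.45), which had few counts and did not pass the test. SLC2A3 (GLUT3), a glucose carrier of high affinity known from neurons, lies on chromosome 12 from 7919230 to 7936187 (GRCh38). It had 717, 810 and 808 raw counts in A375neg replicates 1 to 3 and 315, 351 and 387 in A375RIPK4.KO replicates 1 to 3. Every A375RIPK4.KO library was below every A375neg library. After normalization the means were 743 ± 24.6 and 368 ± 24.1 (SD, n = 3 each), a log2 fold change of −1.01 (standard error 0.08, edgeR adjusted p = 5.65e-05), or 2.02-fold lower. SLC2A3 shares much of its sequence with SLC2A14, which had at most 10 raw counts. How far reads shared by the pair alter the SLC2A3 count was not tested.

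SLC2A1 (GLUT1), the glucose carrier of most proliferating cells, was far more abundant and changed less. Its raw counts were 11867, 13207 and 12484 in A375neg and 8565, 10154 and 9802 in A375RIPK4.KO. The groups did not overlap, and the log2 fold change of −0.26 (standard error 0.06, edgeR adjusted p = 0.0225) was short of the 1.5-fold limit at 1.20-fold lower. Per kilobase, SLC2A1 stood at 2531 normalized counts in A375neg against 121 for SLC2A3, so the carrier that fell more was the rarer of the pair. The summed normalized count of the 10 sugar and inositol carriers, most of it SLC2A1, was 16450 to 17275 in A375neg and 12385 to 13277 in A375RIPK4.KO.

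SLC5A3 (SMIT1), a sodium symporter that takes up myo-inositol and is induced by hyperosmotic stress, lies on chromosome 21 from 34073578 to 34106260. It had 3837, 3379 and 4318 raw counts in A375neg and 2092, 1710 and 2387 in A375RIPK4.KO. The groups were apart, and replicate 2 was the lowest library in both. The log2 fold change was −0.77 (standard error 0.13, edgeR adjusted p = 0.00361), 1.70-fold lower. SLC5A3 lies within MRPS6, a mitochondrial ribosomal protein gene on the same strand, whose log2 fold change was −0.16 (edgeR adjusted p = 0.308).

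The other sugar carriers tested did not pass. SLC2A13, a proton-coupled inositol carrier, had 408, 409 and 577 raw counts in A375neg and 331, 345 and 485 in A375RIPK4.KO, and its groups overlapped (log2 fold change −0.13, edgeR adjusted p = 0.65). SLC2A10 (GLUT10) had 15 to 17 raw counts in A375neg and 7 to 13 in A375RIPK4.KO, and SLC2A12 (GLUT12) 11 to 28 and 9 to 14, with adjusted p of 0.485 and 0.363 (edgeR).

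The lactate group showed the largest fall of any carrier. Of its 6 members tested, 4 fell, or 66.7% beside 9.04% of all genes called. The median log2 fold change of the 6 was −0.77. Only SLC16A3 among those that fell is an established lactate carrier, SLC16A6 is known as an exporter of ketone bodies, SLC16A5 carries some drugs, and the cargo of SLC16A4 is little known. SLC16A3 (MCT4), the lactate exporter of glycolytic cells, lies on chromosome 17 from 82217934 to 82240086. Its raw counts were 519, 483 and 541 in A375neg and 240, 316 and 229 in A375RIPK4.KO. The highest A375RIPK4.KO library was well under the lowest A375neg library. Means of 492 ± 41.1 and 274.8 ± 50.004 normalized counts (SD, n = 3 each) gave a log2 fold change of −0.84 (standard error 0.14, edgeR adjusted p = 0.00339), 1.79-fold lower. CSNK1D overlaps SLC16A3 on the opposite strand and had a mean of 2854 raw counts over all libraries, against 388 for SLC16A3. Its log2 fold change was −0.09 (edgeR adjusted p = 0.403). How far its reads enter the SLC16A3 count was not tested.

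SLC16A6 (MCT7) spans 68267026 to 68291479 of chromosome 17. It had 79, 101 and 87 raw counts in A375neg and only 9, 6 and 12 in A375RIPK4.KO. Each A375RIPK4.KO library held a small part of what any A375neg library held. This is 8.89-fold lower (log2 fold change −3.15, standard error 0.29, edgeR adjusted p = 0.000114), and leaving out any 1 library gave −3.38 to −2.93. ARSG, a sulfatase gene on the opposite strand that overlaps SLC16A6, was also lower, with 84, 93 and 80 raw counts in A375neg and 31, 35 and 31 in A375RIPK4.KO (log2 fold change −1.27, edgeR adjusted p = 0.00299). The libraries mark strand, but the strand setting of the counting is not given in the sources used here, so reads of this pair of genes cannot be told apart with certainty.

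SLC16A5 (MCT6) spans 75087385 to 75110149 of the same chromosome. It had 408, 386 and 321 raw counts in A375neg and 202, 164 and 175 in A375RIPK4.KO. The groups did not overlap, and the log2 fold change was −0.91 (standard error 0.16, edgeR adjusted p = 0.00384), 1.88-fold lower. SLC16A4 (MCT5) spans 110362857 to 110391026 of chromosome 1. It had 165, 212 and 230 raw counts in A375neg and 84, 118 and 137 in A375RIPK4.KO. The call of SLC16A4 (log2 fold change −0.71, standard error 0.19, edgeR adjusted p = 0.0371) was not stable. Over the alternatives the adjusted p ran from 0.00967 to 0.128, and SLC16A4 lost its call without A375neg replicate 2 (log2 fold change −0.70), A375neg replicate 3 (−0.61) or A375RIPK4.KO replicate 1 (−0.55).

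SLC16A7 (MCT2), a lactate and pyruvate carrier of high affinity, did not pass the test. It had 1246, 1255 and 1348 raw counts in A375neg and 1243, 994 and 1317 in A375RIPK4.KO, and the groups overlapped (log2 fold change 0.02, standard error 0.10, edgeR adjusted p = 0.919). SLC16A13 (MCT13) had 58, 66 and 74 against 43, 39 and 49, a log2 fold change of −0.46 (standard error 0.22, edgeR adjusted p = 0.191). The summed normalized count of the group was 2312 to 2483 in A375neg and 1725 to 1999 in A375RIPK4.KO.

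SLC16A1 (MCT1), the widely expressed lactate carrier, appears in the table only under a scaffold copy, outside the rule. That copy had 49, 62 and 71 raw counts in A375neg and 50, 55 and 79 in A375RIPK4.KO (log2 fold change 0.15, edgeR adjusted p = 0.725). How far its counts stand for all SLC16A1 reads is open to doubt. LDHA, the lactate dehydrogenase subunit, had 5 to 13 raw counts under its own name while its scaffold copy had 2244, 390 and 2987 in A375neg and 222, 241 and 1440 in A375RIPK4.KO, so the counts of that copy varied several-fold within a group.

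The 3 genes SLC16A6, SLC16A5 and SLC16A3 lie in this order on the long arm of chromosome 17, over 14.0 Mb. Of the 146 other genes tested between them, 5 were called as higher and 6 as lower, 7.53% in all, and their median log2 fold change was −0.002. Within 1 Mb of SLC16A6, 3 of 13 other genes tested were called as lower, ARSG among them, and 9 of the 13 had a log2 fold change below 0. Within 1 Mb of SLC16A3 and SLC16A5 the called genes were 3 of 49 and 2 of 42.

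**Figure D3:**
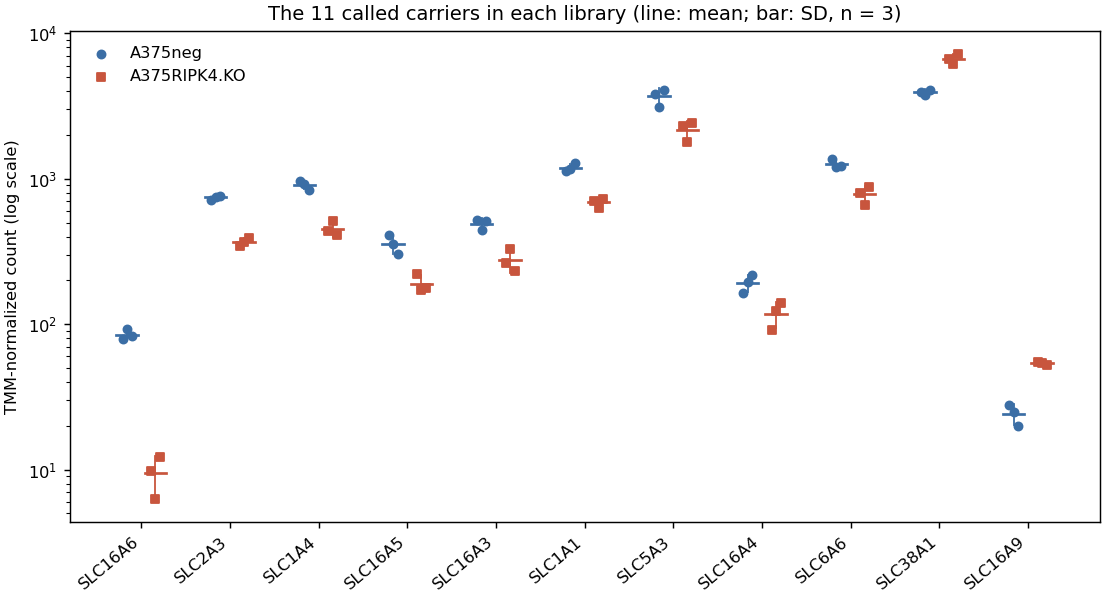
TMM-normalized count (y axis, log scale) of the 11 called carriers in each A375neg library (blue circles) and each A375RIPK4.KO library (red squares). Horizontal lines are means and vertical bars are SD (n = 3 per group). Genes are ordered by fold change. The 11 were picked by their difference in these same libraries, so that their groups do not overlap adds no support. SLC16A6 falls from 84.8 to 9.42.

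Amino acid carriers moved in both directions. Of 24 tested, SLC38A1 rose, SLC1A4 and SLC1A1 fell, and 6 more had an adjusted p under 0.05 below the fold limit. Their median log2 fold change was 0.05, and 12.5% were called, beside 9.04% of all genes. SLC38A1 (SNAT1), a sodium symporter for glutamine and other neutral amino acids, lies on chromosome 12 from 46183063 to 46269043. It had 3975, 4105 and 4317 raw counts in A375neg and 6105, 5877 and 7153 in A375RIPK4.KO. All A375RIPK4.KO libraries were higher. Means of 3949 ± 157 and 6687 ± 559 normalized counts (SD, n = 3 each) gave a log2 fold change of 0.76 (standard error 0.07, edgeR adjusted p = 0.000152), 1.69-fold higher.

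SLC38A2 (SNAT2), the relative that is induced when amino acids are short, lies close to SLC38A1 on the same chromosome and stood at 1384 normalized counts per kilobase in A375neg against 394 for SLC38A1. It had 8799, 9479 and 10427 raw counts in A375neg and 9974, 9349 and 11990 in A375RIPK4.KO (log2 fold change 0.26, standard error 0.09, edgeR adjusted p = 0.0843). Its raw counts overlapped between the groups. SLC38A9, the lysosomal arginine sensor of the mTORC1 pathway, had 415, 469 and 440 against 404, 429 and 415 raw counts, a log2 fold change of 0.05 (edgeR adjusted p = 0.73).

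The SLC1 family holds the carriers of acidic and of small neutral amino acids, and its members went opposite ways. SLC1A4 (ASCT1), an exchanger of serine, alanine and cysteine, spans 64988479 to 65023865 of chromosome 2. It had 960, 1000 and 887 raw counts in A375neg and 397, 491 and 404 in A375RIPK4.KO. The groups were far apart, at 907 ± 60.8 and 452 ± 53.8 normalized counts (SD, n = 3 each), a log2 fold change of −1.005 (standard error 0.10, edgeR adjusted p = 0.000185). SLC1A1 (EAAT3), a glutamate and cysteine carrier, spans 4490468 to 4587469 of chromosome 9. It had 1130, 1262 and 1344 raw counts in A375neg and 642, 603 and 719 in A375RIPK4.KO. It was 1.73-fold lower (log2 fold change −0.79, standard error 0.08, edgeR adjusted p = 0.000236). SPATA6L, which overlaps SLC1A1 on the opposite strand, had 6, 2 and 3 raw counts in A375neg and 16, 12 and 11 in A375RIPK4.KO. It was called as higher (log2 fold change 1.92, edgeR adjusted p = 0.0482) but kept the call in only 1 fit with 1 library left out. Within 1 Mb of SLC1A1, 3 of 12 other genes tested were called, all as higher, SPATA6L among them.

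SLC1A3 (EAAT1), a glial glutamate carrier, had 282, 287 and 301 raw counts in A375neg and 348, 400 and 387 in A375RIPK4.KO (log2 fold change 0.52, standard error 0.10, edgeR adjusted p = 0.00767). SLC1A5 (ASCT2), the main glutamine carrier of many tumour cells, had 11427, 12767 and 12268 against 12126, 14576 and 12867, a log2 fold change of 0.25 (standard error 0.07, edgeR adjusted p = 0.0421). Both had an adjusted p under 0.05 at less than 1.5-fold. Thus the related exchangers SLC1A4 and SLC1A5 had fold changes of opposite sign.

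SLC7A5 (LAT1), which exchanges glutamine for leucine and other large neutral amino acids, and SLC3A2 (4F2hc, CD98), the glycoprotein heavy chain it pairs with, were lower by about the same factor. SLC7A5, on chromosome 16, had 44377, 49377 and 48869 raw counts in A375neg and 31738, 36689 and 37608 in A375RIPK4.KO. SLC3A2, on chromosome 11, had 12254, 13034 and 12293 against 8472, 10057 and 9555. In both genes every A375RIPK4.KO library was below every A375neg library. The log2 fold change was −0.29 for SLC7A5 (standard error 0.06, edgeR adjusted p = 0.0132) and −0.29 for SLC3A2 (standard error 0.07, edgeR adjusted p = 0.0169), 1.23-fold and 1.22-fold lower. The pseudogene SLC7A5P2 can share reads with SLC7A5. It had a mean of 0.948 normalized counts in A375neg and 3.90 in A375RIPK4.KO. How far shared reads alter the SLC7A5 count was not tested.

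The other light chains tested did not pass. SLC7A11 (xCT), which imports cystine in exchange for glutamate, had 1127, 1014 and 1242 raw counts in A375neg and 1103, 778 and 1152 in A375RIPK4.KO, and its groups overlapped (log2 fold change −0.02, standard error 0.15, edgeR adjusted p = 0.935). SLC7A6 (y+LAT2) had a log2 fold change of −0.09 (edgeR adjusted p = 0.578), with 1125 raw counts in A375RIPK4.KO replicate 2 and 1423 or more in every other library. Among the cationic amino acid carriers, which need no heavy chain, SLC7A1 (CAT1) had 4306 to 4942 raw counts in A375neg and 4240 to 5156 in A375RIPK4.KO and did not pass (log2 fold change 0.12, edgeR adjusted p = 0.332). SLC7A2 (CAT2) had 371, 368 and 392 against 456, 406 and 517, a log2 fold change of 0.42 (edgeR adjusted p = 0.0274), under the fold limit.

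SLC36A1 (PAT1), a proton-coupled amino acid carrier of lysosomes, had 597, 693 and 657 raw counts in A375neg and 413, 389 and 455 in A375RIPK4.KO. Its groups did not overlap, and the log2 fold change of −0.49 (standard error 0.08, edgeR adjusted p = 0.00384) was 1.41-fold lower. SLC36A4 (PAT4), its relative, had 975 to 1070 raw counts in A375neg and 879 to 991 in A375RIPK4.KO (log2 fold change −0.03, edgeR adjusted p = 0.839). SLC43A1 (LAT3), a uniporter of branched-chain amino acids, had 194 to 242 and 196 to 236 (log2 fold change 0.16, edgeR adjusted p = 0.515). SLC43A2 had at most 5 raw counts under its own name and was not tested. Its scaffold copy, outside the rule, had at most 3, and how far these counts stand for all SLC43A2 reads is open to doubt. The remaining 8 amino acid carriers that were tested had log2 fold changes from −0.12 to 1.20 and adjusted p of 0.0646 or more (edgeR).

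Of these, SLC6A17, a carrier of neutral amino acids known from synaptic vesicles, stood nearest to a call. It had 35, 25 and 12 raw counts in A375neg and 53, 58 and 40 in A375RIPK4.KO (log2 fold change 1.20, standard error 0.39, edgeR adjusted p = 0.0681). It is named here after its values were seen. DESeq2, the fit with a replicate block and the fit without A375neg replicate 1 called it, and its log2 fold change was 0.87 to 1.61 without any 1 library. DESeq2 called 9.13% of all genes.

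Among the carriers of other cargo, SLC16A9 (MCT9), a carnitine carrier on chromosome 10 from 59650764 to 59710079, rose. It had 28, 27 and 21 raw counts in A375neg and 50, 52 and 52 in A375RIPK4.KO. The groups were apart, with a log2 fold change of 1.15 (standard error 0.25, edgeR adjusted p = 0.0125). Over its alternatives the adjusted p ran from 0.0106 to 0.0513, and SLC16A9 lost its call without A375neg replicate 2 (log2 fold change 1.17) or replicate 3 (1.03). SLC6A6 (TauT), the taurine carrier on chromosome 3 from 14402576 to 14489349, fell. Its raw counts were 1369, 1302 and 1285 in A375neg and 735, 629 and 872 in A375RIPK4.KO (log2 fold change −0.69, standard error 0.11, edgeR adjusted p = 0.00265), 1.61-fold lower. Without A375RIPK4.KO replicate 2, its log2 fold change of −0.58 was just short of the fold limit. SLC6A6 and SLC5A3 both carry organic osmolytes.

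The creatine carrier SLC6A8 (log2 fold change −0.14), the biotin and pantothenate carrier SLC5A6 (0.17) and SLC43A3 (0.18) did not pass edgeR's test. Their edgeR adjusted p was 0.137, 0.115 and 0.0897. SLC6A8 can share reads with its pseudogene SLC6A10P, which had at most 33 raw counts, and the effect of this was not tested.

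RefSeq promoter windows were matched for 7 of the 11 called carriers, and for 5 of them the window ends at the start of the gene. The 250 bases before the start (GRCh38.p14) were searched on both strands for ACGTG, the core of sites bound by HIF and by E-box factors, and for TGATGNAA, the letters of the amino acid response element bound by ATF4. ACGTG was found before SLC1A4 and SLC16A9, and no TGATGNAA was found in the 5 windows. Over 35116 promoters, 18.5% held ACGTG and 3.14% held TGATGNAA. A match describes the letters and is not a binding site. Shown are the windows of the rising SLC16A9 and the falling SLC1A4, which hold the match, and of the falling SLC1A1, which does not. All are written 5′ to 3′ on the strand of the gene with ACGTG or its reverse complement in capitals. In SLC16A9 matches on both strands overlap.
SLC16A9, chr10:59710080-59710329, minus strand: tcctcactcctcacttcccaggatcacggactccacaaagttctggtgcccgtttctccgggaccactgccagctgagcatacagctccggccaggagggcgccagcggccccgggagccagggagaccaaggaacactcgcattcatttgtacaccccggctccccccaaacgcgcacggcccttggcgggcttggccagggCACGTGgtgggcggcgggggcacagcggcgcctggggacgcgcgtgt
SLC1A4, chr2:64988229-64988478, plus strand: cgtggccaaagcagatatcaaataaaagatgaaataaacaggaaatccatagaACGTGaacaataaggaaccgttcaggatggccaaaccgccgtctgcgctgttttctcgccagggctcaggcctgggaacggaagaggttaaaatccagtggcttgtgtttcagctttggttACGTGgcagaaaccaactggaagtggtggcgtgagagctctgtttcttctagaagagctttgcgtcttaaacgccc
SLC1A1, chr9:4490218-4490467, plus strand: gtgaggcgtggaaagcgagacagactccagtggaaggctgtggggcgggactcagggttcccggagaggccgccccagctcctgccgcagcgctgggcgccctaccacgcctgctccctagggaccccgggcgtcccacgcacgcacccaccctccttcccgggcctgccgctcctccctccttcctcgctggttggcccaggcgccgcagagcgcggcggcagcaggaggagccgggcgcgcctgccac

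Partner genes of the carriers were counted from 3 lists. Of 20 tested genes that chaperone carriers or handle sugar and lactate, 1 was called, 5% against 9.04% of all genes. A further 2 had an adjusted p under 0.05 below the fold limit, and are named after their values were seen. PFKFB4 missed the limit narrowly at 1.49955-fold lower (log2 fold change −0.58, edgeR adjusted p = 0.000824). It was called in 4 of 6 fits with 1 library left out. HIF1A was higher (log2 fold change 0.29, edgeR adjusted p = 0.0275). TXNIP, an arrestin that draws glucose carriers from the membrane and is itself induced by glucose, had 334, 364 and 358 raw counts in A375neg and 219, 224 and 195 in A375RIPK4.KO (log2 fold change −0.59, standard error 0.12, edgeR adjusted p = 0.00938), and it kept its call in 4 of 6 fits with 1 library left out. BSG (basigin), the chaperone that brings MCT1 and MCT4 to the membrane, had 11590, 13664 and 13391 against 10191, 13777 and 12714 (log2 fold change 0.06, edgeR adjusted p = 0.717). EMB (embigin), the partner of MCT2, had a log2 fold change of −0.01 (edgeR adjusted p = 0.94). SLC16A3 thus fell while its chaperone did not pass the test.

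The amino acid response is the programme driven by ATF4 when amino acids are short. Of its 23 tested genes, 1 rose and 2 fell, 13.04% in all, beside 9.04% of all genes called. PHGDH, which starts the synthesis of serine from a glycolytic intermediate, had 3036, 3372 and 3322 raw counts in A375neg and 6117, 7560 and 6894 in A375RIPK4.KO, 2.32-fold higher (edgeR adjusted p = 8.87e-06). DDIT4 (REDD1), a stress-induced inhibitor of mTORC1, had 3468, 3642 and 3455 against 1098, 1179 and 1107, 2.84-fold lower (edgeR adjusted p = 1.05e-06). STC2 was 1.51-fold lower (edgeR adjusted p = 0.0379) but kept its call in 1 of 6 fits with 1 library left out. ATF4 itself had 5998, 6628 and 6090 against 4921, 6016 and 6019 (log2 fold change −0.01, edgeR adjusted p = 0.948), and ASNS was too rare under its own name to be tested.

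Of 28 tested genes of amino acid use and sensing, 3 rose and 1 fell, 14.3% in all, beside 9.04% of all genes called. GLUL, the glutamine synthetase, had 147, 180 and 156 raw counts in A375neg and 640, 795 and 808 in A375RIPK4.KO, 5.09-fold higher (log2 fold change 2.35, standard error 0.11, edgeR adjusted p = 1.72e-06). SESN3, a sestrin, rose from 52, 40 and 45 to 108, 118 and 114 (2.71-fold, edgeR adjusted p = 0.00125), and RRAGD, a Rag GTPase that brings mTORC1 to the lysosome, from 191, 199 and 164 to 278, 305 and 254 (1.66-fold, edgeR adjusted p = 0.00788). KYNU, an enzyme of tryptophan breakdown, fell from 2785, 2733 and 2789 to 1011, 1179 and 1073 (2.32-fold, edgeR adjusted p = 8.71e-06). GLUL and SLC38A1 thus rose in the same libraries in which SLC1A4 and SLC1A1 fell.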

How the data were processed

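RNA-seq was performed by the authors on 3 A375neg and 3 A375RIPK4.KO libraries (poly(A)-enriched, strand-specific, paired-end). The deposited columns used here are raw counts per gene in each library, not normalized and not pooled. The submitters' processing notes name cutadapt, FastQC, HISAT2, HTSeq and DESeq2 and the build GRCh38.p13. Their versions and the strand setting are not given in the sources used here. The table also holds the authors' normalized values and the columns of their own comparison (fold changes and p-values), which were not used. Reads, and genes without a row in the table, were not analysed here.

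Differences between the groups were fitted with edgeR 4.0.16 in R 4.3.3. TMM factors scaled the libraries, filterByExpr removed rare genes, and the quasi-likelihood test was run on 14443 genes without covariates, with Benjamini-Hochberg adjusted p-values. The standard error is the log2 fold change divided by the square root of F. Levels per kilobase use the union of exons in GENCODE release 29. Promoter windows come from RefSeq. Libraries were grouped by their labels, and p-values measure the spread between these libraries. Named are all called carriers, carriers and partners picked for their role, the 3 most abundant of each cargo group, and called partners. The cargo groups, lists and members were chosen with earlier results of these data known. Alternatives were DESeq2 1.42.0, its size factors in edgeR, other filters and fold limits, a replicate block, a correction for gene length and each library left out. The steps were tested on simulated counts in which 200 genes were changed, whereas 2403 had an adjusted p under 0.05 in these data. The simulation used no fold limit either, so its shares do not apply directly to the calls made here. There edgeR, at an adjusted p under 0.05, recovered 52.2% of genes changed 1.5-fold, 52.2% of those changed 2-fold and 81.8% of those changed 4-fold. A carrier that did not pass may therefore still differ. The values of 1 carrier tested are not reported here.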

Additional observations from a re-analysis of the deposited data

How the results depend on the processing

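The number of called carriers was 11 and stayed within 9 to 12 with DESeq2, DESeq2's size factors, other filters on low counts, the replicate block (12) and the gene length correction, and 9 to 13 when any 1 library was left out. The same fits without 1 library called 2 sugar carriers each time, 3 to 4 of the lactate group, 3 to 4 amino acid carriers, 1 to 3 carriers of other cargo, and 1059 to 1336 of all genes. Without a fold limit, 18 carriers were called, among them 9 amino acid carriers, and 2403 genes in all. With a limit of 2-fold, 4 carriers were called, 1 in each cargo group, and 793 genes in all. Requiring a mean of 50 counts left 1 called carrier of other cargo and 3 of the lactate group. SLC16A6, with a mean of 49 raw counts, was not tested under that filter. Replicate numbers were shared by both groups, but same-numbered libraries did not deviate together (correlations 0.0823, 0.0357 and −0.0119), and the replicate block called 1266 genes. Among the carriers named for their role, abundance or call, the sign turned for 5, which lay close to 0 and were not called. Of the other carriers tested, SLC16A10 ran from −0.14 to 0.36 and SLC38A6 from −0.12 to 0.21 without any 1 library. With the gene length correction SLC36A4 had 0.0041 and SLC7A11 0.00062 on the log2 scale. Without any 1 library, SLC16A7 ran from −0.046 to 0.14, SLC2A13 from −0.30 to 0.046, SLC36A4 from −0.053 to 0.015, SLC7A11 from −0.12 to 0.14 and SLC7A6 from −0.17 to 0.024. The cause of these changes was not tested. The median log2 fold change of all genes stayed within 0.01 of 0 under each scaling.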
